A study of Mus musculus with 30 samples.

Results

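Levels of 9 genes of vascular calcification and osteochondrogenic change were followed in cultured mouse aortic smooth muscle cells, as RNA counts from 30 libraries in 9 groups. The genes were chosen by name for their known roles, and all 9 were found by symbol among 78334 genes listed. They are the transcription factors Runx2, Sox9 and Msx2, the mineral-forming enzyme and bone matrix proteins Alpl, Spp1 and Ibsp, and the inhibitors and pyrophosphate handlers Mgp, Enpp1 and Ank.

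Smooth muscle cells of the artery wall can take on features of bone and cartilage cells, and mineral is then laid down in the vessel wall. Runx2 and Sox9 are the master regulators of bone and cartilage cell identity, and Msx2 is a homeobox factor on the bone side of the same program. Mineral grows where phosphate is available and pyrophosphate, which blocks crystal growth, is removed. Alpl degrades pyrophosphate, Enpp1 makes it outside the cell and Ank lets it, or the nucleotide it is made from, leave the cell. Mgp is a secreted inhibitor of arterial calcification, Spp1 encodes osteopontin, a secreted phosphoprotein that binds mineral and marks activated smooth muscle cells, and Ibsp encodes bone sialoprotein.

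The study changed the amount of CASC15, a long non-coding RNA, and gave 2 agents to the cells. Run 2 held 2 libraries with the knockdown control GapmeR (an antisense oligonucleotide that directs RNA cleavage), 2 labelled knockdown of total CASC15, 3 with the overexpression control plasmid and 3 labelled overexpression of total CASC15, none of them treated. Run 3 held 4 libraries in each of 5 groups: knockdown control without treatment, with 10 ng/ml of angiotensin II or with platelet-derived growth factor BB (PDGF-BB) at 10 to 30 ng/ml, and knockdown of long CASC15 untreated or with angiotensin II at 10 ng/ml. Both agents were human and were given for 24 h, transfection lasted at least 24 h, and all cells were kept serum-free for 48 h. Cell origin, the animals' strain and age, and whether PDGF-BB cells shared one dose are not given in the sources used here. The growth protocol speaks of mouse and rat cells. The titles number the target upward from CASC15 to CASC22 over libraries that share a group; libraries were grouped by the code in their names, and all targets were read as CASC15. Each library carries a batch label from P16 to P19, one library per group and batch. Nothing in the labels says whether the libraries of a group came from separate cultures or animals, so p-values measure the spread between these libraries. Run and group cannot be told apart, and runs were fitted separately.

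Total counts ran from 15771490 to 30362047 per library, and 3 counts, taken as the limit that a count of 0 allows, equal 0.0988 to 0.190 CPM, the count scaled to library size. Of the smooth muscle markers, Cald1 and Acta2 had medians of 590 and 188 CPM, but the contractile genes Myh11, Tagln and Cnn1 had medians of 0.28, 1.26 and 0 CPM. Tie1 (endothelial), Dmp1 (osteoblast) and Hapln1 (chondrocyte) had 0 counts in all libraries, Ptprc (leukocyte) had 6 and Cdh5 (endothelial) had 2 in total. Other markers of these types did have counts, such as Pecam1 (698), Vwf (687), Cd68 (1041), Phex (973), Acan (285) and Col2a1 (280). The adventitial fibroblast markers Ly6a, Pi16, Pdgfra, Lum and Dpt had medians of 110, 20.0, 18.8, 1.13 and 0.19 CPM. No table used here pairs the name CASC15 with a row. The gene 2610307P16Rik was taken for it in part because it rose in the overexpression libraries, so that rise (to between 604 and 916 CPM from between 4.03 and 8.69 CPM) is no check of the labels. It was lower after long knockdown, by 0.95 on the log2 scale untreated and 0.79 with angiotensin II (adjusted p = 0.000832 and 0.00372). Control cells with PDGF-BB also had less of it, at 2.95 to 4.82 CPM against 4.94 to 6.01 CPM in untreated controls. In the libraries labelled total knockdown it stood at 9.73 and 8.29 CPM, above the 7.66 and 6.37 CPM of their controls (log2 fold change 0.36 ± 0.33 SE, adjusted p = 0.739). These libraries are therefore described by their label only.

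Of the 9 genes, 6 had enough counts to be tested in both runs: Runx2, Sox9, Spp1, Mgp, Enpp1 and Ank. The 3 others were at or near 0. Ibsp had 0 counts in all 30 libraries. Alpl, the phosphatase that defines mineralizing cells, had 14 counts in total, spread over 6 libraries with at most 6 in any of them. Msx2 had 19 counts in total, in 8 libraries, also with at most 6. In each case only 1 library passed the limit of 3 counts, an overexpression library for Alpl and a plasmid control library for Msx2. No fold change was computed for these genes.

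Spp1 and Ibsp are neighbours in a group of secreted phosphoprotein genes on mouse chromosome 5, where the RefSeq annotation places Dspp, Dmp1, Ibsp, Mepe and Spp1 in that order among protein-coding genes. Spp1 was the only one of the 5 with any count: 7463 over all libraries, against 0 for each of the others. The 250 bases before a RefSeq start (build GRCm38.p6) are shown for this pair, and for Enpp1, because these genes carry the contrasts that follow. Capitals mark TGTGGT on either strand, the core sequence that RUNX proteins recognise. Both matches printed here are on the reverse strand and therefore read ACCACA.

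Spp1, chr5:104434861-104435110, plus strand: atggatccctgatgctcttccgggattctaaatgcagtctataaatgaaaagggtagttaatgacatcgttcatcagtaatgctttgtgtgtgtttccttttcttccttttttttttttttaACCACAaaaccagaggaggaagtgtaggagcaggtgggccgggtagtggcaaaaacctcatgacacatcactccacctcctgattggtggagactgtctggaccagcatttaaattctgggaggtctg
Ibsp, chr5:104299037-104299286, plus strand: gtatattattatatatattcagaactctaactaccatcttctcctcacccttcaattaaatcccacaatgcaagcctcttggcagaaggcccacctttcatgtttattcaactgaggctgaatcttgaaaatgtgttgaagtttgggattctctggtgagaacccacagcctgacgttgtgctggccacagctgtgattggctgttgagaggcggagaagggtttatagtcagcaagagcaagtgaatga
Enpp1, chr10:24712160-24712409, minus strand: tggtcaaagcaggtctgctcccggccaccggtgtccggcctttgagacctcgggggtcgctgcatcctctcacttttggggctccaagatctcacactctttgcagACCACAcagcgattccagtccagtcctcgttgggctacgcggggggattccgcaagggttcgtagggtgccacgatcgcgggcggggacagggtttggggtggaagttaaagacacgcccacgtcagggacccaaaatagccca

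The first Spp1 window held 1 match, 128 bases before the start, and the Enpp1 window held 1 match, 144 bases before it. The Ibsp window held none. RefSeq windows were found for 7 of the 9 genes, Sox9 and Mgp being the others, and 3 of their 9 windows, 1 each of Spp1, Enpp1 and Runx2, had a match. Of 32851 windows of the same length over all genes, 14% had a match. A match is a run of letters and no measure of binding.

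Compared per kilobase of exon, Ank was the most abundant of the 6 genes in all 9 groups and Enpp1 the least abundant in 8 of them. In untreated control cells of run 3 the mean levels were 52.3 CPM per kb for Ank, 18 for Sox9, 14.4 for Mgp, 3.61 for Runx2, 1.93 for Spp1 and 0.217 for Enpp1 (n = 4). The levels of Sox9 and Mgp, neighbours in that order, had SDs of 1.87 and 3.59 CPM per kb, which is about the distance between them. In the PDGF-BB group the order was Ank at 69.3, Mgp at 47.4, Spp1 at 35.1, Sox9 at 15.1, Runx2 at 5.26 and Enpp1 at 0.339 CPM per kb. Spp1 and Mgp overlapped there, since Spp1 had an SD of 23.8 CPM per kb. In the antisense control of run 2, Enpp1 stood at 2.74 CPM per kb, close to Runx2 at 2.94 and above Spp1 at 1.41. These are levels set side by side across runs and were not tested.

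**Figure D1:**
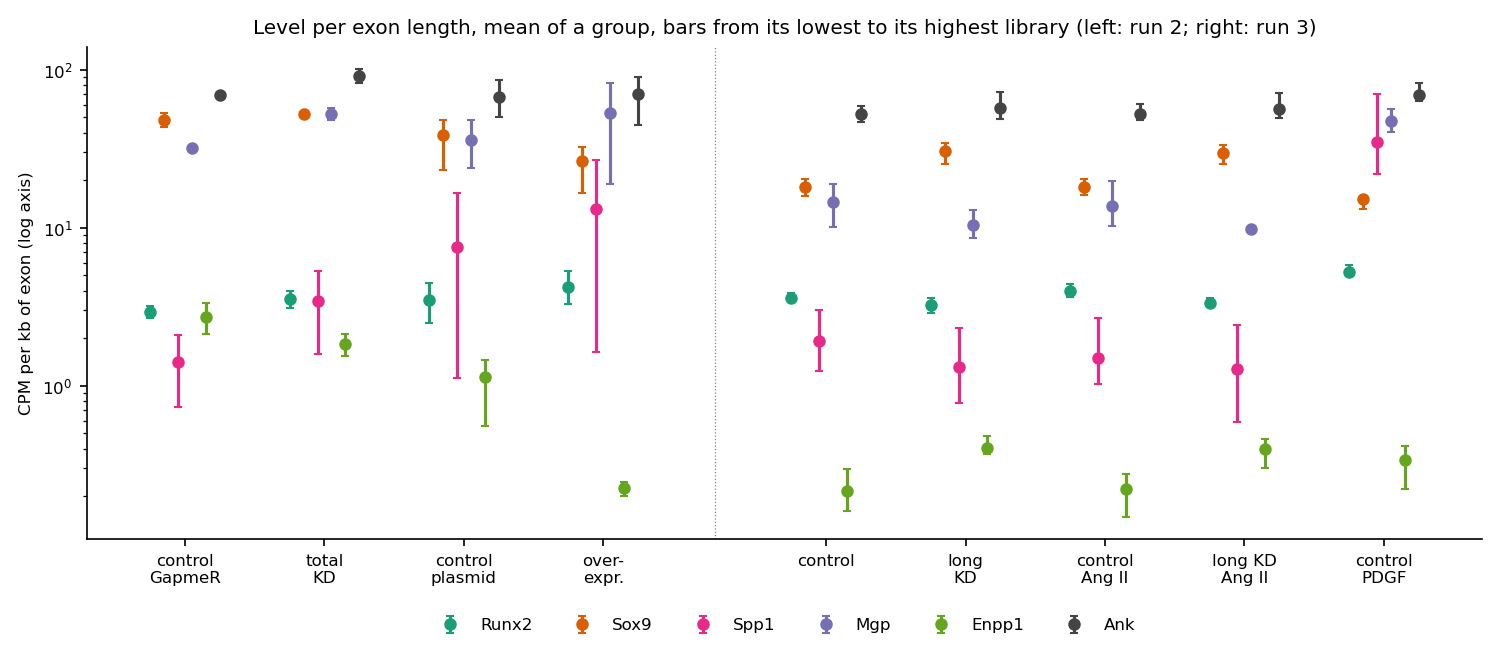
Level per kilobase of exon (log axis) of 6 genes in 9 groups, with run 2 left and run 3 right of the dotted line. Points are group means and bars run from the lowest to the highest library; Spp1 moves from 1.93 in run 3 controls to 35.1 CPM per kb with PDGF-BB, while Ank stays on top in every group.

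PDGF-BB, a mitogen for smooth muscle cells, was the agent under which the most of these genes changed. In knockdown control cells, 5 of the 6 tested genes rose with PDGF-BB and none fell. A gene is said to have risen or fallen where its adjusted p was under 0.05 in edgeR's quasi-likelihood test, Benjamini-Hochberg adjusted over all genes of that run. By that rule 43.6% of the 15103 genes tested changed with PDGF-BB, 23.6% upward and 20% downward, so many genes moved together with these. The median log2 fold change of the 6 was 0.59, and that of all genes tested was -0.02.

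Spp1 had the greatest change of the 6. It was at 2.52, 3.19, 2.04 and 4.98 CPM in the 4 untreated control libraries and at 40.4, 38.2, 36.1 and 117 CPM with PDGF-BB, each list in the order P16 to P19. The groups lay far apart, and the P19 library was the highest in both. The fitted change was 17.9-fold (log2 fold change 4.16 ± 0.50 SE, adjusted p = 3.8e-06). Within batches the log2 ratio ran from 3.58 to 4.55, higher in 4 of 4. Without the P19 library of the PDGF-BB group the log2 fold change was 3.54, still past the threshold.

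Mgp, the calcification inhibitor, had the second greatest rise. Its untreated levels of 22.4, 17, 17.3 and 12 CPM became 66.8, 47.9, 53.6 and 57 CPM, with no overlap, a 3.29-fold difference (log2 fold change 1.72 ± 0.19 SE, adjusted p = 5.56e-07). The rise was present in 4 of 4 batches.

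Runx2 rose by less but with little spread. It was at 31.4, 31.7, 34.4 and 30.0 CPM untreated and at 44.1, 46.2, 51.2 and 44.3 CPM with PDGF-BB (1.46-fold, log2 fold change 0.54 ± 0.08 SE, adjusted p = 1.43e-05). All 4 treated libraries lay above all 4 controls, and the log2 ratio within batches ran only from 0.49 to 0.57.

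Sox9, the cartilage regulator, was lower with PDGF-BB, at the edge of the threshold. It was at 83.9, 76.6, 72.6 and 65.3 CPM untreated and at 64.4, 65.5, 66 and 54.2 CPM with PDGF-BB, and only the lowest control lay among the treated libraries. That gave -0.25 ± 0.11 SE on the log2 scale (adjusted p = 0.0568), but Sox9 was lower in 4 of 4 batches. With the batch as a block, under which 54.5% of all genes changed, the adjusted p was 0.000186 and all 6 genes passed the threshold. Over all alternatives, leave-one-out fits included, Sox9 passed in 8 of 16.

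Both pyrophosphate genes rose, though neither call held in every fit. Ank went from 201, 167, 172 and 214 CPM to 244, 229, 230 and 298 CPM (1.33-fold, log2 fold change 0.41 ± 0.14 SE, adjusted p = 0.0207). These groups did not overlap. Enpp1 was low throughout, at 1.76, 3.03, 1.65 and 2.47 CPM untreated and 4.26, 3.49, 2.27 and 3.87 CPM with PDGF-BB, and its groups overlapped (log2 fold change 0.64 ± 0.24 SE, adjusted p = 0.035). Leaving out 1 library ended the call for Enpp1 in 5 of 8 cases (adjusted p from 0.0596 to 0.119: control P16 or P18, PDGF-BB P16, P17 or P19) and for Ank in 3 of 8 (0.0618 to 0.126: control P17 or P18, PDGF-BB P19). Neither passed when genes with low counts were kept in the fit (0.0651 for Enpp1 and 0.0836 for Ank), and Enpp1 did not in a fit of the 2 groups alone (0.0829).

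Summed adventitial fibroblast markers (Pdgfra, Dpt, Pi16, Lum and Ly6a) were at 284 to 350 CPM with PDGF-BB and 171 to 213 CPM without, and of the 4 tested 1 rose and 2 fell. Summed smooth muscle markers were at 701 to 811 against 905 to 1131 CPM. Their part in the changes above was not tested. In bulk RNA, fewer cells of a type and less RNA per cell cannot be told apart.

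**Figure D2:**
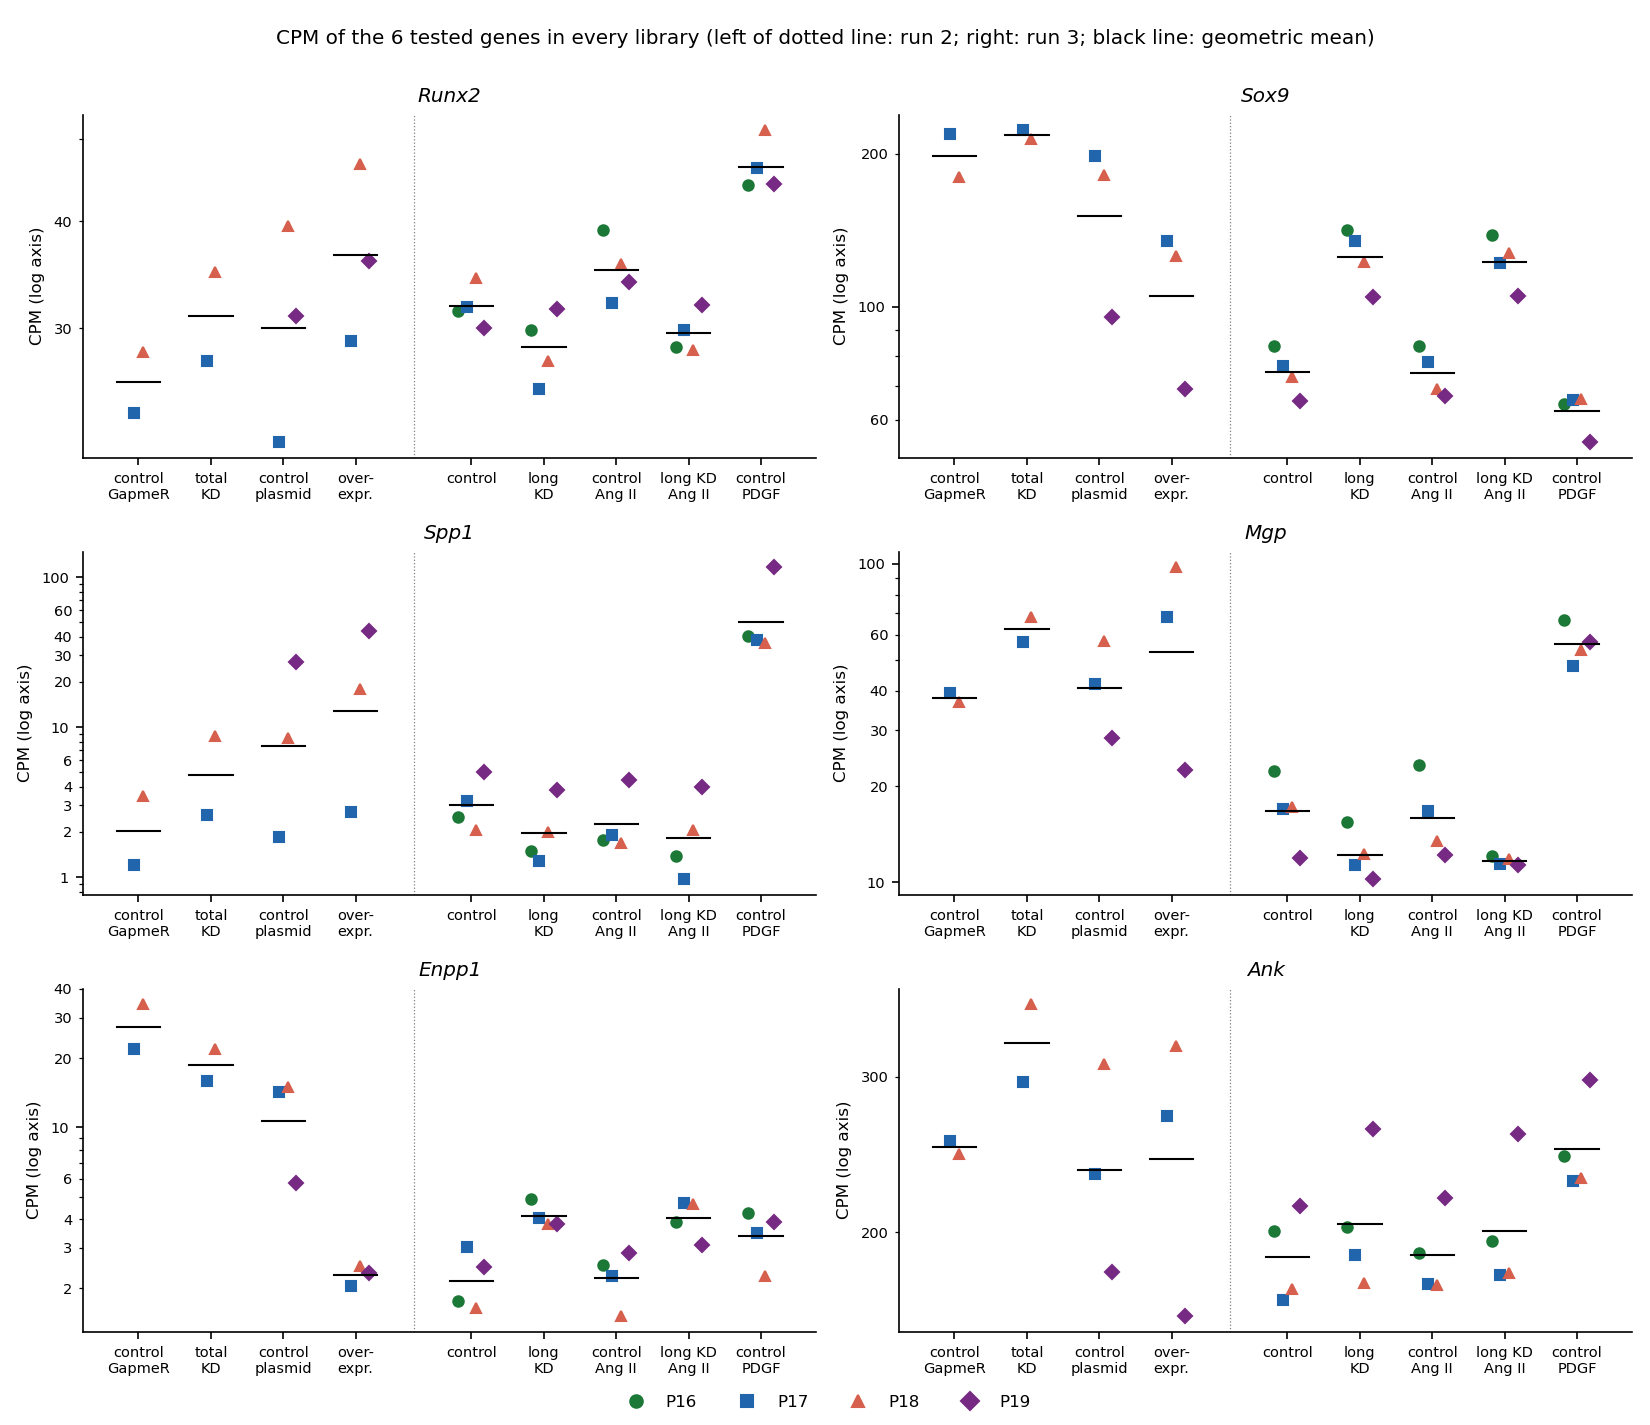
CPM (log axis) in every library for the 6 tested genes, marked by batch, with the geometric mean of each group as a black line. Within run 3 the PDGF-BB libraries stand apart for Spp1 (36.1 to 117 CPM), Mgp and Runx2, and the long knockdown libraries stand above their controls for Sox9 (104 to 142 CPM).

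After knockdown of long CASC15, Sox9 and Enpp1 rose in both settings. The untreated knockdown was compared with the same 4 untreated control libraries that served for PDGF-BB, so the 2 comparisons are not independent. Without treatment, 2 of the 6 genes rose and none fell, where 25% of all genes tested changed (12.3% up and 12.8% down). With angiotensin II in both groups, which draws on other libraries, 2 rose and 1 fell, where 26.7% changed (13.4% up and 13.3% down). The median log2 fold change of the 6 was -0.01 untreated and -0.05 with angiotensin II, against 0.02 and 0.01 for all genes.

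Sox9 showed the clearest change after knockdown. Untreated knockdown libraries were at 142, 135, 123 and 104 CPM, all above the control range of 65.3 to 83.9 CPM (1.69-fold, log2 fold change 0.76 ± 0.11 SE, adjusted p = 2.45e-05). With angiotensin II, controls were at 83.9, 77.9, 69 and 66.8 CPM and knockdown libraries at 139, 122, 127 and 105 CPM (1.66-fold, log2 fold change 0.73 ± 0.11 SE, adjusted p = 3.66e-05). The level was higher in 4 of 4 batches in each setting, with log2 ratios from 0.64 to 0.88.

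Enpp1, which makes pyrophosphate, also rose in both settings. It was at 4.9, 4.06, 3.81 and 3.82 CPM in untreated knockdown cells, all above the control range of 1.65 to 3.03 CPM (1.86-fold, log2 fold change 0.90 ± 0.24 SE, adjusted p = 0.00808). With angiotensin II it went from 2.53, 2.26, 1.52 and 2.84 CPM to 3.90, 4.69, 4.64 and 3.09 CPM (1.79-fold, log2 fold change 0.84 ± 0.24 SE, adjusted p = 0.0134), higher in 4 of 4 batches. Without the control P18 library the log2 fold change was 0.68 and the adjusted p 0.0528.

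Runx2 fell by a small amount where both groups had received angiotensin II. Its controls were at 39.1, 32.1, 35.7 and 34 CPM and its knockdown libraries at 28.5, 29.8, 28.3 and 31.9 CPM, just short of overlapping (log2 fold change -0.25 ± 0.08 SE, adjusted p = 0.0264). Leaving out 1 library ended this call in 5 of 8 cases, with adjusted p from 0.0508 to 0.0904 (control P16 or P18, knockdown P16, P17 or P18). Keeping genes with low counts gave 0.0943. Untreated, Runx2 was at 29.8, 25.4, 27.5 and 31.6 CPM against 30.0 to 34.4 CPM in controls (log2 fold change -0.16 ± 0.08 SE, adjusted p = 0.159).

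Mgp was lower in knockdown cells without passing the threshold. Its knockdown levels were 15.5, 11.3, 12.3 and 10.2 CPM untreated (log2 fold change -0.47 ± 0.19 SE, adjusted p = 0.0767). With angiotensin II they were 12.1, 11.4, 11.8 and 11.4 CPM, against 23.3, 16.7, 13.4 and 12.1 CPM in controls (log2 fold change -0.49 ± 0.19 SE, adjusted p = 0.0661). Without the control P16 library that value was -0.28. Mgp was lower in 4 of 4 batches in both settings, and with the batch as a block the adjusted p was 0.00371 and 0.00434. With and without angiotensin II it passed in 6 of 16 alternatives, leave-one-out fits included.

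Spp1 and Ank did not pass in either setting. Spp1 was at 1.49, 1.28, 2.01 and 3.82 CPM in untreated knockdown libraries, overlapping the controls (log2 fold change -0.59 ± 0.53 SE, adjusted p = 0.454). With 1 library left out Spp1 ran from -1.02 (without the knockdown P19) to -0.27 (without the control P19). Ank was at 203, 188, 175 and 262 CPM (log2 fold change 0.13 ± 0.14 SE, adjusted p = 0.505). With the batch as a block both passed, at 0.0146 and 0.0423, so that 5 of the 6 genes changed untreated, where 40.6% of all genes did. Without batch P19 and without a block, 5 genes passed as well, where 40% of all genes did, with Runx2 at -0.24 (adjusted p = 0.0223), Spp1 at -0.70 (0.0135) and Mgp at -0.54 (0.0424) among them. With angiotensin II neither passed with or without the block: Spp1 was at 1.77, 1.91, 1.69 and 4.44 CPM in controls and 1.39, 0.971, 2.05 and 3.99 CPM after knockdown (log2 fold change -0.21 ± 0.57 SE, adjusted p = 0.819). The block gave 4 of the 6 genes there, where 41.3% of all genes changed.

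The summed adventitial fibroblast markers were lower after knockdown, at 84.9 to 114 CPM against 171 to 213 CPM untreated, and 92.4 to 114 against 178 to 230 CPM with angiotensin II. Single markers went both ways: of the 4 tested, 2 rose and 2 fell untreated, and 1 rose and 2 fell with angiotensin II. Among osteoblast markers, Dmp1, Bglap and Sp7 had 0, 7 and 56 counts over all 30 libraries, and Phex had 973. Phex rose after untreated knockdown and was not called with angiotensin II. The part of the fibroblast markers in the changes of Sox9 and Enpp1 was not tested.

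**Figure D3:**
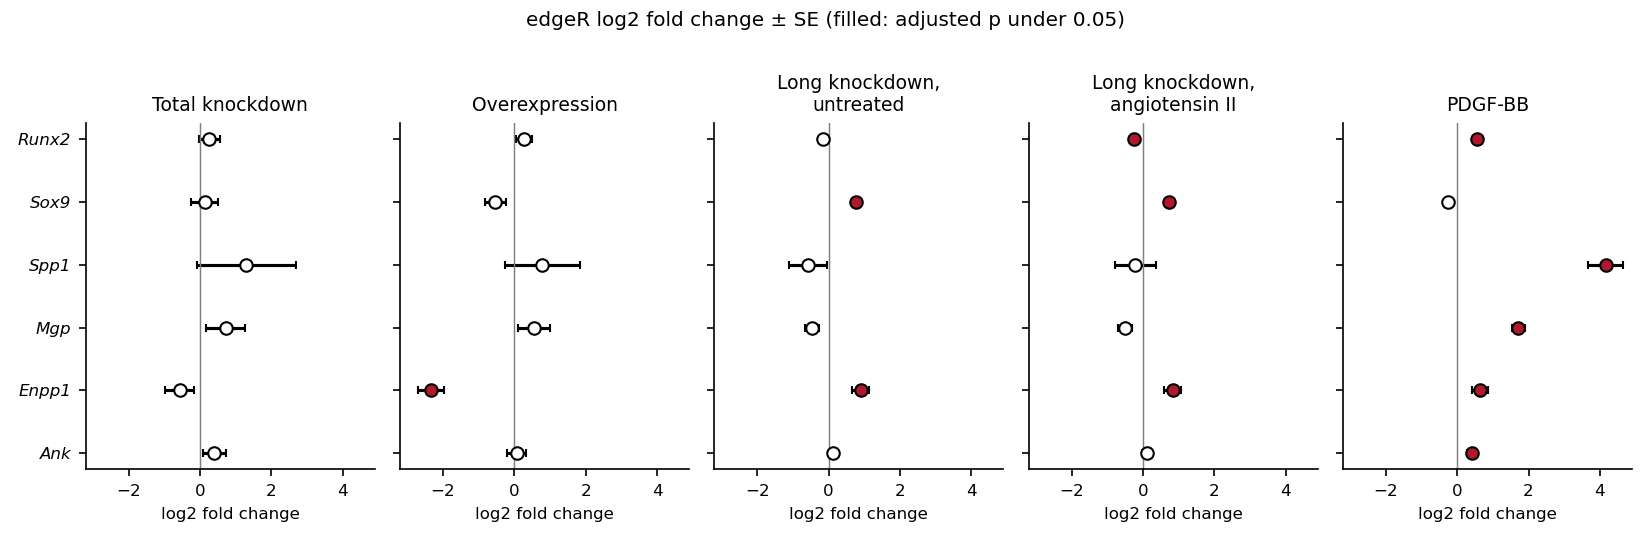
Log2 fold change with its standard error for 6 genes in 5 comparisons, filled where the adjusted p was under 0.05. Spp1, Mgp and Runx2 are to the right under PDGF-BB, Sox9 and Enpp1 under long knockdown, and Enpp1 (-2.34) is the one filled point under overexpression.

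Angiotensin II itself gave no detectable change in any of the 6 genes. In control cells the log2 fold changes ran from -0.41 (Spp1) to 0.14 (Runx2), and in knockdown cells from -0.08 (Mgp) to 0.05 (Runx2). The smallest adjusted p was 1 in control cells and 0.9999 in knockdown cells. With 1 library left out, the largest absolute log2 fold change of the 6 ran from 0.20 to 0.86 in control cells. In knockdown cells it ran from 0.094 to 0.54. Within batches of control cells, Spp1 was lower and Runx2 higher in 4 of 4. No gene of the whole table passed either test in edgeR (0% of 15103 in control cells and 0% in knockdown cells), while 156 and 174 genes had an unadjusted p under 0.05, and DESeq2 called 1 and 0. The same held for the test of whether the knockdown effect differed with angiotensin II, where 0% passed, 166 genes had an unadjusted p under 0.05 and DESeq2 called 1. So the fall of Runx2 with angiotensin II and not without was not shown to differ between the settings (difference -0.09 ± 0.11 SE, adjusted p = 0.9999). For Sox9 the difference was -0.03 ± 0.15 SE.

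In run 2, Enpp1 fell in the libraries that overexpressed total CASC15. It was at 14.3, 14.9 and 5.73 CPM in the plasmid controls and at 2.05, 2.51 and 2.34 CPM in the overexpression libraries, in the order P17 to P19, with no overlap. The fall was 5.07-fold (log2 fold change -2.34 ± 0.37 SE, adjusted p = 0.016) and appeared in 3 of 3 batches, from -1.29 to -2.80. It was the only one of the 6 genes called, where 1.65% of the 15350 genes tested changed and 0.554% fell. The call was lost in a fit of these 2 groups alone (0.0649) and when the P17 or P18 library of either group was left out (0.0611 to 0.0803).

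The other 5 genes did not pass the threshold, and levels differed much between the batches of the plasmid control. Sox9 went from 198, 182 and 95.5 CPM to 134, 126 and 68.7 CPM, lower in 3 of 3 batches by 0.47 to 0.56 on the log2 scale, but its groups overlapped (log2 fold change -0.53 ± 0.30 SE, adjusted p = 0.453). Leaving out 1 library moved Sox9 to between -0.79 (without the plasmid P19) and -0.29 (without the overexpression P19). Spp1 differed more between batches than between groups, at 1.85, 8.42 and 27.3 CPM in plasmid controls and 2.7, 17.9 and 44 CPM with overexpression (log2 fold change 0.79 ± 1.06 SE, adjusted p = 0.777). With the batch as a block Sox9 (adjusted p = 0.000718) and Spp1 (0.0111) passed as well, which made 3 of the 6, where 17.7% of all genes changed. Without batch P19, Sox9 passed without a block too (0.0334). Mgp was at 42, 57.3 and 28.4 CPM in controls and 68.1, 97.7 and 22.4 CPM with overexpression, higher in 2 batches and lower in the other (log2 fold change 0.56 ± 0.45 SE, adjusted p = 0.61). With 1 library left out Mgp ran from 0.090 (without the overexpression P18) to 0.95 (without the overexpression P19). Without P19 and with the block Mgp passed (0.00316), as did Sox9 (0.00145) and Spp1 (0.0388). With genes of low counts kept in the fit Mgp (0.0101), Spp1 (0.0219) and Sox9 (0.00601) passed too. Runx2 had 0.27 ± 0.23 SE as its log2 fold change (adjusted p = 0.634), from 0.073 (without the plasmid P17) to 0.48 (without the plasmid P18) with 1 library left out, and Ank had 0.06 ± 0.26 SE (adjusted p = 0.944).

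Summed adventitial fibroblast markers were at 360 to 674 CPM with overexpression and 67.3 to 312 CPM in plasmid controls, but of the 5 tested 0 were called by edgeR's test (0 with an unadjusted p under 0.05) and 0 by DESeq2. Their part in the fall of Enpp1 was not tested.

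None of the 6 genes passed the threshold in the 2 libraries labelled total knockdown, where 2.07% of all genes changed. None had an unadjusted p under 0.05 in edgeR's test, and DESeq2 called none. Spp1 was at 2.61 and 8.78 CPM against 1.20 and 3.46 CPM in the antisense controls (log2 fold change 1.3 ± 1.39 SE, adjusted p = 0.787). With 1 library left out the log2 fold change ran from 0.17 (without the knockdown P18) to 2.23 (without the control P18). Spp1 was the 1 gene called with the block (0.00968), where 14.4% of all genes changed. Mgp was at 57 and 68 against 39.2 and 36.7 CPM (log2 fold change 0.72 ± 0.55 SE, adjusted p = 0.683). Enpp1 was at 15.8 and 21.9 against 21.8 and 34.3 CPM (log2 fold change -0.57 ± 0.40 SE, adjusted p = 0.65). Leaving out 1 library moved Enpp1 to between -0.87 (without the control P17) and -0.22 (without the control P18). With genes of low counts kept in the fit Spp1 (0.00125) and Mgp (0.00502) passed, and in a fit of the 2 groups alone Mgp did (0.0177). Summed macrophage and leukocyte markers were at 17.3 to 21.0 CPM in these libraries against 0.579 to 0.790 CPM in their controls, with 2 of 3 tested genes higher, although Ptprc and Adgre1 had 6 and 1 counts over all 30 libraries. Their part in these values was not tested.

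The 2 kinds of control of run 2 were compared as well. None of the 6 genes passed between plasmid and antisense controls, where 1.18% of all genes did (1 had an unadjusted p under 0.05 in edgeR's test, and DESeq2 called none). Enpp1 was lower with the plasmid (11.6 ± 5.13 against 28.1 ± 8.84 CPM, SD, n = 3 and 2), a log2 difference of -1.27 ± 0.37 SE (adjusted p = 0.269). It passed without P19 and with the block (0.00546), P19 being present in the plasmid group only, and with genes of low counts kept (1.47e-05). Spp1 had 2.42 ± 1.34 SE as its log2 fold change (adjusted p = 0.587), and from 1.13 (without the plasmid P19) to 3.36 (without the antisense P18) with 1 library left out. With the block Spp1 was at 1.10 and was the 1 gene that passed (0.0477), where 2.99% of all genes did, and it passed with low counts kept (5.39e-14). Enpp1 thus stood at 28.1 CPM in the antisense control of run 2 and at 2.23 CPM in the untreated control of run 3, and such distances between runs were not tested.

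**Figure D4:**
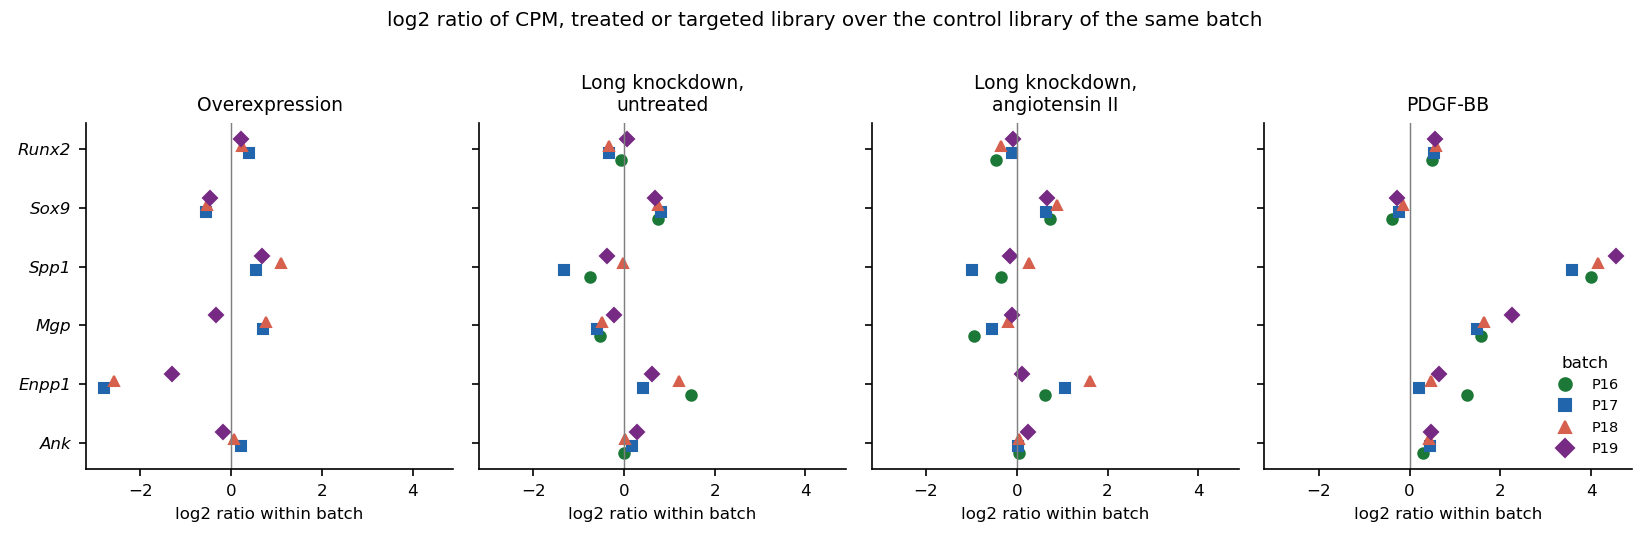
Log2 ratio of CPM between the 2 libraries of one batch, for 6 genes in 4 comparisons. Under PDGF-BB the 4 batches lie together for Runx2 (0.49 to 0.57) and apart for Spp1 (3.58 to 4.55), and for Enpp1 with overexpression the P19 batch is the nearest to 0 (-1.29).

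Beside the 9, 41 other genes of bone, cartilage and calcification were followed, and 25 (run 2) and 23 (run 3) of them had enough counts for the test. With PDGF-BB 5 rose and 5 fell, after long knockdown 4 rose and 6 fell untreated, and 3 rose and 6 fell with angiotensin II. These 10, 10 and 9 of 23 stand beside 43.6%, 25% and 26.7% of all genes tested. With the block the counts were 14, 12 and 12, beside 54.5%, 40.6% and 41.3%. In the 3 comparisons of run 2, and for angiotensin II, 0 were called by edgeR's test. In the libraries labelled total knockdown 8 of 25 had an unadjusted p under 0.05, beside 12.9% of all genes, and the block called 9, beside 14.4%. With overexpression 3 had such a p, beside 15% of all genes, and the block called 5, beside 17.7%. Between the run 2 controls 3 had such a p, beside 9.41%, and the block called 0, beside 2.99%. For angiotensin II no gene of the list had one. Median log2 fold changes of this list were -0.05 with PDGF-BB, -0.08 after untreated knockdown and -0.27 after knockdown with angiotensin II.

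Of the 6 phosphate and pyrophosphate genes tested, 3 rose and 1 fell with PDGF-BB, where 43.6% of all genes changed. Slc20a1, the sodium-phosphate carrier that takes phosphate into smooth muscle cells, went from 18.6 ± 1.58 to 37.4 ± 4.9 CPM (SD, n = 4 each), with a log2 fold change of 1.01 (adjusted p = 4e-05). Its relative Slc20a2 had a log2 fold change of 0.40 (adjusted p = 0.00253). Smpd3, a neutral sphingomyelinase needed for bone mineralization, ran from 44.7 to 90.8 CPM untreated and from 107 to 194 CPM with PDGF-BB (log2 fold change 1.07, adjusted p = 0.0398). Abcc6, a transporter needed for release of pyrophosphate precursors, was lower (log2 fold change -1.97, adjusted p = 0.00426) at levels under 1.25 CPM.

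After long knockdown 2 of the 6 fell untreated and 1 with angiotensin II, and none rose, where 25% and 26.7% of all genes changed. Slc20a2 had log2 fold changes of -0.53 untreated and -0.43 with angiotensin II (adjusted p = 0.000517 and 0.00303). Slc20a1 fell untreated (-0.51, adjusted p = 0.0262) and was at -0.37 with angiotensin II (adjusted p = 0.103).

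Of the 3 mineralized matrix genes tested, 1 fell with PDGF-BB, 1 rose and 1 fell after untreated knockdown, and 1 fell after knockdown with angiotensin II, beside 43.6%, 25% and 26.7% of all genes. Omd, the bone keratan sulphate proteoglycan osteomodulin, fell with PDGF-BB from 28.4 ± 2.26 to 9.72 ± 1.62 CPM (log2 fold change -1.54, adjusted p = 6.84e-05). Of the 3 cartilage genes tested, 1 was called with PDGF-BB, 1 after untreated knockdown and 0 after knockdown with angiotensin II, beside the same shares. Matn3, which encodes a matrix protein, rose with PDGF-BB at a low level, from 0.245 to 1.45 CPM. Sox5, a partner of Sox9, rose after untreated knockdown (0.33, adjusted p = 0.0428). After knockdown with angiotensin II the smallest adjusted p of these 3 was 0.271 in edgeR's test. Sparc (osteonectin) fell after long knockdown, by 0.63 untreated and by 0.57 with angiotensin II on the log2 scale (adjusted p = 0.00101 and 0.00224). Phex, an endopeptidase of bone mineral control, rose after untreated knockdown (log2 fold change 2.21, adjusted p = 0.0128), from a range of 0.576 to 1.46 CPM to one of 1.01 to 6.14 CPM, and the groups overlapped.

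Of the 5 inhibitors and activators tested, 1 fell with PDGF-BB. After knockdown 1 rose and 2 fell untreated, and 1 rose and 3 fell with angiotensin II. The shares of all genes that changed were 43.6%, 25% and 26.7%. Gas6, a vitamin K-dependent ligand that protects smooth muscle cells from calcification, was at 106 ± 6.54 CPM in untreated controls. It fell to 59.8 ± 5.36 CPM after untreated knockdown (log2 fold change -0.83, adjusted p = 1.42e-06). It also fell to 68.1 ± 4.61 CPM with PDGF-BB (log2 fold change -0.64, adjusted p = 9.74e-06), and from 103 to 58.9 CPM after knockdown with angiotensin II (log2 fold change -0.80, adjusted p = 2e-06). Ggcx, the carboxylase that activates Mgp and Gas6, fell after knockdown in both settings (-0.44 and -0.42, adjusted p = 0.0012 and 0.00184), and had a log2 fold change of -0.02 with PDGF-BB (adjusted p = 0.9). Tnfrsf11b (osteoprotegerin) fell after knockdown with angiotensin II (-0.75, adjusted p = 0.0323). Fam20c, the kinase that phosphorylates Spp1, rose after knockdown in both settings (0.36 and 0.45, adjusted p = 0.0451 and 0.0149).

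Among the regulators, Cbfb, a protein partner of Runx2, rose with PDGF-BB (log2 fold change 0.38, adjusted p = 0.000167). Bmp4, a bone-inducing ligand, fell in all 3 comparisons, by 0.55 with PDGF-BB, 0.33 after untreated knockdown and 0.27 after knockdown with angiotensin II on the log2 scale. Twist2, which restrains Runx2, rose after knockdown with angiotensin II (0.49, adjusted p = 0.0167) and fell with PDGF-BB (-0.54, adjusted p = 0.0054). Besides those named by the rule of size, Slc20a2, Ggcx, Bmp4, Cbfb, Fam20c, Sox5, Matn3 and Abcc6 were chosen after their values were seen. The PDGF-BB and untreated knockdown values share their controls.

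**Figure D5:**
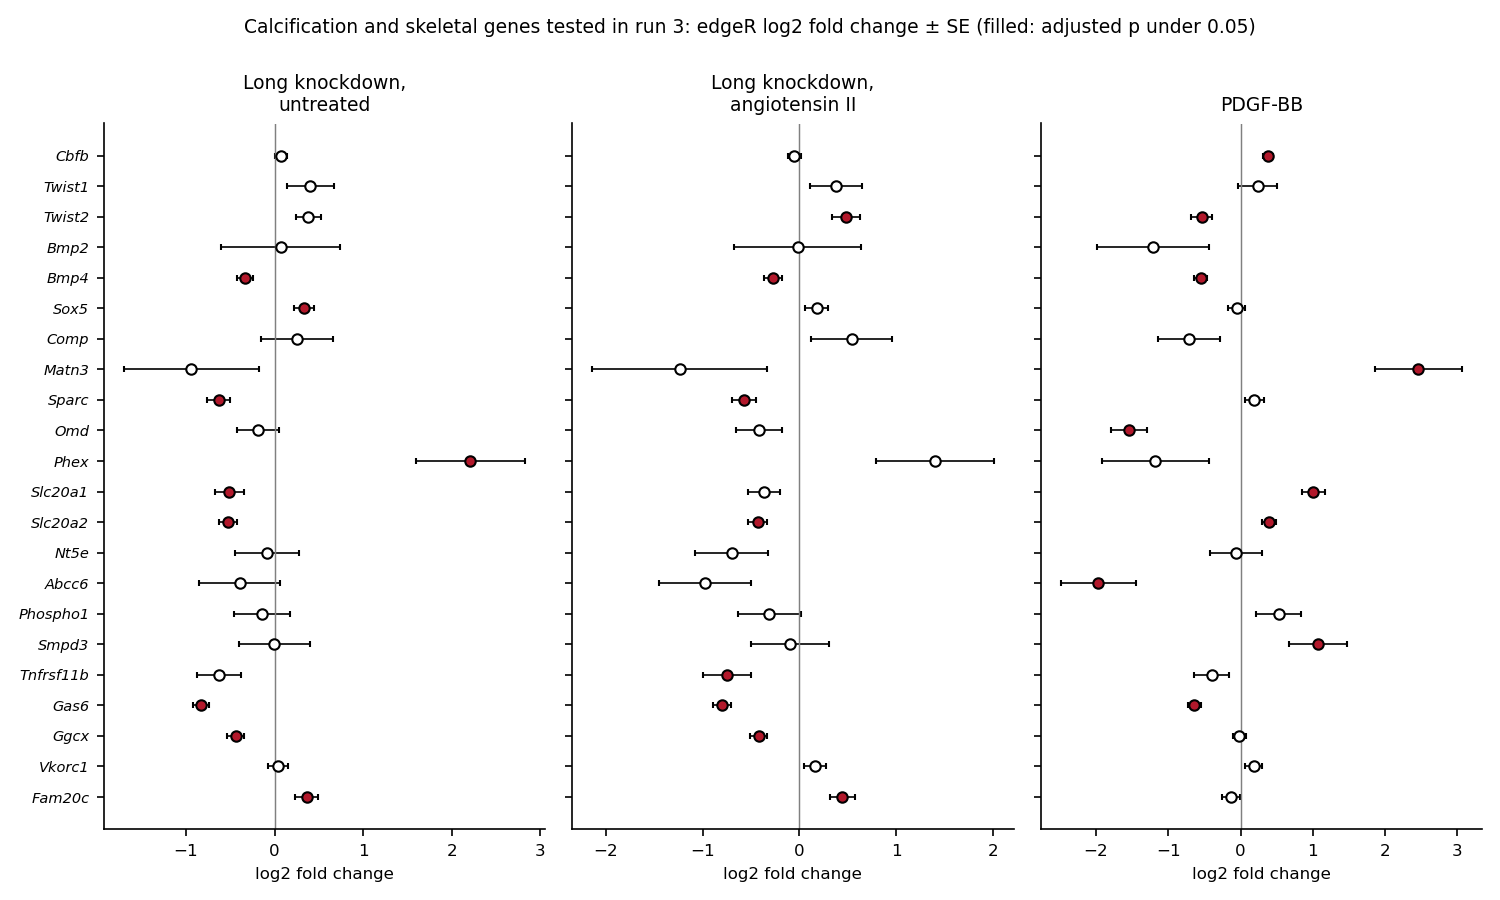
Log2 fold change with its standard error for 22 of the other genes tested in run 3, filled where the adjusted p was under 0.05, in 3 comparisons (the axes differ in range). Slc20a1 (1.01 with PDGF-BB and -0.51 after untreated knockdown) and Slc20a2 lie on opposite sides, and Gas6 lies to the left in all 3.

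Across the 30 libraries, after each run was centred on its own mean, the 6 genes were compared by their correlations. Runx2, Spp1 and Mgp had Pearson correlations of 0.79 (Runx2 with Spp1), 0.72 (Runx2 with Mgp) and 0.60 (Spp1 with Mgp). Sox9 went with Enpp1 (0.65) and against Spp1 (-0.72) and Runx2 (-0.62). Ank had its highest value with Mgp (0.58). Over the 26 libraries without PDGF-BB, Runx2 had 0.63 with Spp1 and 0.43 with Mgp, while Spp1 with Mgp turned to -0.22. Sox9 had 0.76 with Enpp1, -0.70 with Spp1 and -0.51 with Runx2 there, and Ank had 0.48 with Mgp. These values describe libraries that share groups and batches, and leaving out the PDGF-BB libraries was chosen after seeing the data.

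The gene most like each of the 6 by the same measure, among 10260 with a mean of at least 5 CPM, was Cep192 for Runx2 (0.89), a centrosome gene, and Sertad4 for Sox9 (0.95). It was Atad2 for Spp1 (0.96), a chromatin ATPase of dividing cells, and Rangap1, the activator of the Ran GTPase, came next (0.96). Npy4r was nearest to Mgp (0.92), Sorcs1 to Enpp1 (0.92) and Anxa4 to Ank (0.95). The second in each list was Crybg1 for Runx2 (0.88), Pacs1 for Sox9 (0.94), Rbm20 for Mgp (0.88), Sept5 for Enpp1 (0.89) and Gsdme for Ank (0.82). These values include the PDGF-BB libraries, where Spp1 rose the most of the 6, and were not computed without them.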

How the data were processed

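RNA was measured in 30 libraries by paired reads of 75 bases. Per the labels and the submitters' processing notes, STAR 2.7.11b and RSEM 1.3.1 were named, with the builds GRCm39 and mm10 and no role for each. The deposited values are expected counts per gene, the RSEM estimates that share reads between genes. The strand setting is not given in the sources used here. The expected counts were rounded to whole numbers here. Members and lists were chosen with earlier results of these data known.

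Each run was fitted separately in edgeR 4.0.16 (R 4.3.3): filterByExpr (minimum count 10, total 15), TMM scaling, 1 coefficient per group over all groups of the run, and the quasi-likelihood test with Benjamini-Hochberg adjustment over all genes tested (threshold 0.05). CPM values are TMM-scaled. Exon lengths came from the GENCODE M21 annotation. Of the genes listed, 51486 carry a symbol, and all 41 genes of the wider list were found. The genes named from that list were, per comparison, up to 2 with the greatest rise and up to 2 with the greatest fall among those called with a mean of at least 1 CPM. Values of 1 gene of that list are not reported here, though it stays in the list's counts. Promoter windows and gene order came from RefSeq (GRCm38.p6). Figures and motif searches were made in Python.

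Replicate numbers follow the batch label, which pairs libraries across groups. Libraries of the same batch and different groups had deviations with a mean correlation of 0.30 in run 2 and 0.27 in run 3, against -0.15 and -0.08 for different batches. The main fit has no block, and the batch as a replicate block is an alternative. The other alternatives were DESeq2 1.42.0, RLE size factors, other filters on low counts, only the groups compared, leaving out each library, and leaving out batch P19, the last with the block added after seeing the data. Replicates differed by more than sampling noise in all 38 pairs (chi-square per degree of freedom from 4.22 to 74.6). The test was tried on simulated data.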

Additional observations from a re-analysis of the deposited data

Results flagged for a closer look

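Each of the 6 tested genes was examined in each of the 5 groups of 4 libraries, 30 sets of values in all. In 3 sets 1 library stood apart from the other 3 by more than Dixon's 95% limit for the gap as a share of the range; chance gives about 1 in 20. The 3 sets come from 2 libraries, both of batch P19. Spp1 was at 116.5 CPM in the P19 library with PDGF-BB, where the others ran from 36.1 to 40.4 CPM. Spp1 was also at 4.44 CPM in the P19 control library with angiotensin II, against 1.69 to 1.91 CPM. Sox9 was at 54.2 CPM in the P19 library with PDGF-BB, against 64.4 to 66 CPM. Without batch P19 the PDGF-BB log2 fold changes were 3.89 for Spp1 and -0.25 for Sox9.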

How the results depend on the processing

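The comparisons were repeated under up to 8 other settings and with each library left out. For PDGF-BB, 5 genes were called, and 3 when genes with low counts were kept, with 3 to 6 when 1 library was left out. After untreated long knockdown 2 were called, against 5 with the batch as replicate block, 5 without batch P19, and 5 without P19 and with the block. With overexpression 1 was called, against 4 with low counts kept, 3 with the block, 0 in a fit of the groups compared, 2 without P19, 4 without P19 and with the block, and 0 to 1 with 1 library left out. In the libraries labelled total knockdown 0 were called, against 2 with low counts kept, 1 with the block and 1 in a fit of the groups compared. Between the run 2 controls 0 were called, against 2 with low counts kept, 1 with the block, and 1 without P19 and with the block. The block changed no other count of these genes past 1.5 times. For angiotensin II and its interaction with the knockdown the count was 0 in every setting run. Over all genes, edgeR called 317, 253 and 181 in the libraries labelled total knockdown, with overexpression and between the run 2 controls. DESeq2 called 719, 807 and 347 there, and the block gave 2209, 2721 and 459. With 1 library left out the edgeR counts ran from 4 to 188, from 86 to 867 and from 67 to 277. In the first, 4 were called without the antisense control P17, 13 without the antisense control P18, 18 without the knockdown P18 and 188 without the knockdown P17 library. With overexpression 867 were called without the plasmid control P19 and 86 without the overexpression P18 library, and 67 between the controls without the antisense control P18. After long knockdown the block gave 6126 against 3783 untreated and 6238 against 4033 with angiotensin II.

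Signs turned only for genes that had not been called. Between the run 2 controls Ank was at -0.05 on the log2 scale, and at 0.15 with the block, 0.12 without P19 and 0.10 without P19 and with the block. With 1 library left out Ank ran from -0.28 to 0.12 there, from -0.16 to 0.30 with overexpression, from -0.00154 to 0.20 after untreated knockdown and from -0.038 to 0.18 after knockdown with angiotensin II. Spp1 ran from -0.29 to 2.09 with overexpression and from -0.72 to 0.23 after knockdown with angiotensin II, Mgp from -0.11 to 0.38 between the run 2 controls, and Sox9 from -0.0146 to 0.27 in the libraries labelled total knockdown. The cause was not tested. Where 1 library was left in a group, it was assumed to vary like the other groups of the run. Genes under 3 counts cannot be compared at this depth.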
